A study of Mus musculus with 4 samples.

Results

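The cells described here are hematopoietic stem cells (HSCs) of mouse bone marrow that carried transcripts of G2 and M, the phases in which a cell that has copied its DNA prepares to divide and divides. They were 230 of the 5579 cells kept over 4 single-cell libraries. A kept cell had 1000 or more genes detected, 2000 or more unique molecular identifiers (UMIs, each a tag on 1 captured RNA molecule) and at most 10% of its UMIs on mitochondrial genes. A member had 8 or more UMIs per 10000 on 12 genes of G2 and M, namely Mki67, Top2a, Birc5, Cdk1, Ube2c, Ccnb1, Ccnb2, Cenpf, Cenpe, Nusap1, Hmmr and Cdc20. They are called cycling cells below. The 4709 kept cells with at most 1 UMI on the 12 genes served as reference cells, and the remaining 640 were in neither class. Because the members were selected on the measured levels of these 12 genes, their levels and the levels of other division genes are given as a description.

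The libraries came from male mice 14 weeks old of the labelled strain Tie2-bG-Micm x RosaYFP, and the labels name no treatment. From each of 2 mice, LT-HSC (long-term HSC) were sorted as Lin-Kit+Sca1+CD150+CD48- and ST-HSC (short-term HSC) as Lin-Kit+Sca1+CD150-CD48-. The study used these profiles as a reference for characterising HSCs of its barcoding experiments.

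Most HSCs of an unperturbed adult rest outside the cell cycle and enter it rarely. A cell that does enter first copies its DNA in S phase, when enzymes of nucleotide synthesis and most histone genes are transcribed. Transcripts of mitotic cyclins, spindle proteins and the anaphase-promoting complex then build up through G2 and fall as the cell leaves M. LT-HSCs sustain blood formation on transplantation for longer than ST-HSCs, and ST-HSCs are closer to the multipotent progenitors (MPPs), which carry the receptor Flt3.

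Many promoters of G2 and M genes carry a cell cycle homology region, bound by repressor complexes in resting cells and often read as TTTGAA, with CCAAT boxes bound by NF-Y upstream. Both motifs were searched on either strand (TTTGAA or TTCAAA, and CCAAT or ATTGG) from 250 bases before to 50 bases after the start site of each gene, in RefSeq sequence of build GRCm38.p6. TTTGAA lay in 8 of the 12 genes that chose the members and in 17.9% of all 32851 windows of this length. CCAAT lay in 10 of the 12 and in 37.4% of all windows. Both lay in 8 of the 12 and in 6.95% of all windows. TTTGAA and ATTGG can share a base. The stretches of 3 marker genes that hold both motifs upstream of every annotated start are shown 5′ to 3′ on the gene's strand, with matches in capitals. Mki67 encodes the proliferation antigen Ki-67 (chr7:135716451-135716629, minus strand), Top2a the topoisomerase that untangles copied chromosomes (chr11:99024200-99024439, minus strand) and Ccnb2 a mitotic cyclin (chr9:70421555-70421804, minus strand).
Mki67: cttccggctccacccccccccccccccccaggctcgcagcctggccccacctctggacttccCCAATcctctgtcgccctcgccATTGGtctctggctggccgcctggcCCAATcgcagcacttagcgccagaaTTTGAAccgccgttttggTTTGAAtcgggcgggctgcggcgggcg
Top2a: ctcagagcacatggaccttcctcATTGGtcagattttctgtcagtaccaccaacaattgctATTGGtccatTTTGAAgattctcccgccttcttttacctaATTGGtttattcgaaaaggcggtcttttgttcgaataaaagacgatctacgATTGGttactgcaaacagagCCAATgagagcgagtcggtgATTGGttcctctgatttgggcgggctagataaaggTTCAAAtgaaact
Ccnb2: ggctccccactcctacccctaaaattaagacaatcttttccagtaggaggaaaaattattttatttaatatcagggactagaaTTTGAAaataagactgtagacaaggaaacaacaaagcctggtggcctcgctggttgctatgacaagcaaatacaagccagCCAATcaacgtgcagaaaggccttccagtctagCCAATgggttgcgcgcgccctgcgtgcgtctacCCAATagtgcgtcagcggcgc
In the Ccnb2 stretch TTTGAA begins 167 bases before the start, farther out than the CCAAT matches at 87, 54 and 21. Another Ccnb2 TTTGAA begins 4 bases after the start and is not in the stretch shown. Which of them acts as a cell cycle homology region was not tested. No match in this window says only that these letters are not there, and no binding was measured in this series.

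The LT-HSC library of mouse 1 gave 22 kept cells of 39553 barcodes, with a median of 4495 UMIs, against 1217 to 2633 kept cells in the other libraries. Its 3 cycling cells were counted but not used in any fit, which took libraries with 10 or more cells in each class. The LT-HSC gate therefore rests on the mouse 2 library, and what belongs to the gate and what belongs to that library cannot be told apart. The 3 fitted libraries gave 48, 120 and 59 cycling cells and 1011, 2159 and 1521 reference cells, for LT-HSC mouse 2, ST-HSC mouse 1 and ST-HSC mouse 2. Their cycling cells summed to 967801, 2124962 and 746820 UMIs. No barcode was shared between libraries among the cycling cells, and no doublet caller was run.

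Cycling cells made up 3.94% (95% exact binomial interval 2.92 to 5.20) of LT-HSC mouse 2, 4.56% (3.79 to 5.43) of ST-HSC mouse 1 and 3.46% (2.64 to 4.44) of ST-HSC mouse 2. The LT-HSC share lay between both ST-HSC shares, so no difference between the gates was detectable. After cells with 4000 or more UMIs were thinned to 4000, the shares were 4.195%, 4.07% and 3.34%, with 49, 30 and 29 shallower cells left out. The LT-HSC mouse 1 library gave 3 of 22 cells, 13.6% (2.91 to 34.9). These 3 cells had 2744, 2063 and 2112 UMIs, so none was among the 12 cells deep enough to thin. These intervals cover counting error only.

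The members had a median of 30.5 UMIs on the 12 genes, and 205 of the 230 had 5 or more of the 12 detected. The score ran from the threshold to 131.5 UMIs per 10000, with a median of 20.7. The 3 members just inside the threshold had 8.001, 8.055 and 8.157, and the 3 cells just outside had 7.92, 7.84 and 7.77. Mki67 stood at 430, 339 and 266 CPM (counts scaled so that libraries, after TMM, share 1 total) in the cycling cells of LT-HSC mouse 2, ST-HSC mouse 1 and ST-HSC mouse 2, a library order kept in every triplet below. Its reference levels were 0.81, 1.08 and 0.88 CPM. Cenpf, a kinetochore protein, stood at 278, 309 and 212 CPM and Ccnb2 at 188, 243 and 285 CPM. Ube2c, the ubiquitin-conjugating enzyme that works with the anaphase-promoting complex, stood at 285, 267 and 190 CPM. Of the sort antigens, Kit had a UMI in 193 and Ly6a in 162 of the 230 cycling cells. All 5 marker genes of the set were thus abundant in the cycling cells of each library and near 0 in the reference cells.

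Other division genes followed. The members were selected on 12 genes of the same phases, so the counts of these lists describe the selection and are not evidence from a test. All 13 genes of mitotic kinases and the checkpoint, all 20 of spindle and cytokinesis, all 13 of chromatin condensation and 11 of 12 cyclin and anaphase-promoting complex regulators were higher in cycling cells by edgeR's quasi-likelihood test with library as a block. In that comparison 31.0% of 12667 genes passed an adjusted p of 0.05, 16.2% higher and 14.8% lower. Ccna2, the cyclin of S phase and G2, had 138, 132 and 128 CPM against 0.41, 0.14 and 0.09 CPM. Aurkb, the kinase of the chromosome passenger complex, had 145, 95.5 and 100.5 CPM against 0.20, 0.66 and 0.53 CPM. Hmgb2, a chromatin protein, had 3162, 3008 and 3356 CPM against 241, 306 and 325 CPM. The exception over all cycling cells together was Pttg1, the securin, with 33.5, 33.6 and 49.5 CPM against 52.0, 33.2 and 49.1 CPM. Pttg1 was not level within the cycling cells. Among those with stem cell markers, it was lower in cells with high S phase levels, described below (log2 difference -1.60, SE 0.29).

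The label G2 and M described only some of the members. On a list of 36 S phase genes, 132 of the 230 cycling cells carried 20 or more UMIs per 10000 and 98 carried fewer. The levels had 2 modes with few cells between them, with 98 cells under 20, 17 from 20 to 40, 20 from 40 to 60 and 95 above 60. The medians of both groups were 71.9 and 8.75. These groups are called S-high and S-low members, and the boundary was set after the levels were seen. Of the reference cells, 8.35% were at 20 or more.

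**Figure D1:**
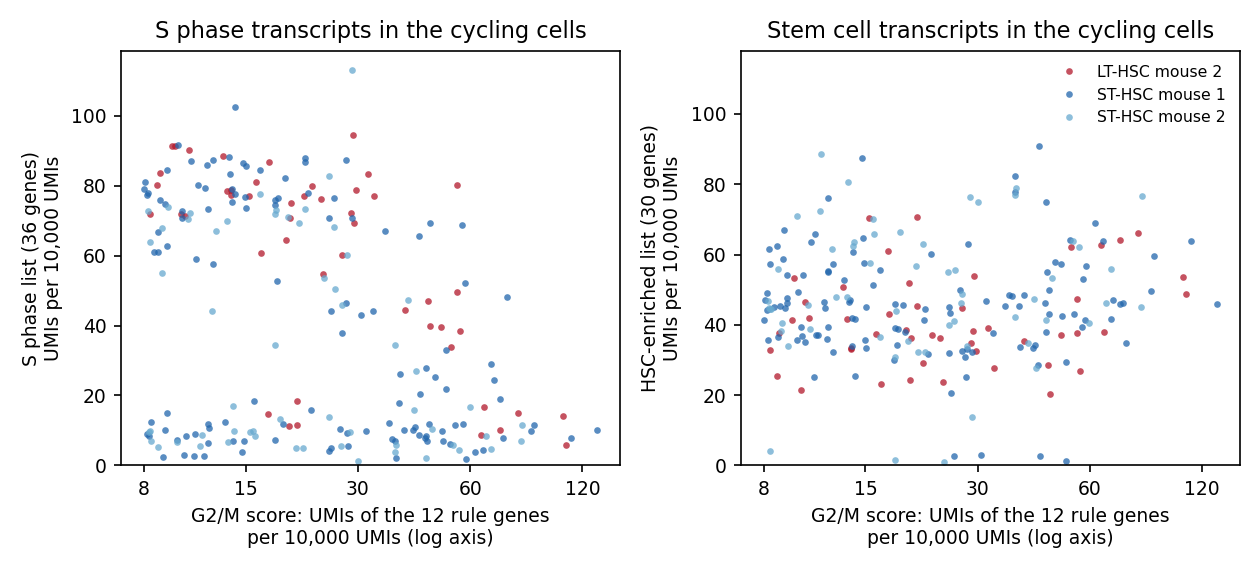
Each point is 1 cycling cell of the 3 fitted libraries. The horizontal axes show the score on the 12 genes that chose the members (UMIs per 10000, log axis); the vertical axes show UMIs per 10000 on the S phase list (left) and on the HSC-enriched list (right). On the left the S-high and S-low members form 2 bands, with S-high medians of 76.7, 74.1 and 68.2 and S-low medians of 13.0, 8.53 and 7.68 by library. The cells between the bands lie mostly at higher scores.

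S-high members were 79.2% (65.0 to 89.5) of the cycling cells of LT-HSC mouse 2, 53.3% (44.0 to 62.5) of ST-HSC mouse 1 and 45.8% (32.7 to 59.2) of ST-HSC mouse 2. These intervals cover the counting of cells within 1 library each, and with 1 LT-HSC library a difference between the gates was not tested. With the cycling cells of 4000 or more UMIs thinned to 4000 (48, 120 and 58 cells), the shares were 83.3%, 55.0% and 44.8%. S-high members also held more RNA, with median UMIs of 21069, 19743 and 16169 against 14204.5, 10650.5 and 8278 in S-low members. Reference cells had medians of 9950, 9503 and 7328 UMIs, so the S-low members of each library lay between its reference and S-high cells.

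The same 12 genes were used unevenly by both groups, given here without a test because they and the S phase list chose the cells. Top2a stood at 686 plain CPM over S-high and 287 over S-low members. Cdk1, the kinase that drives entry into mitosis, stood at 247 and 138 plain CPM. Ccnb2 ran the other way at 85.8 and 611 plain CPM, Cenpf at 146 and 624, and Cdc20, an activator of the anaphase-promoting complex, at 73.0 and 356. Mki67, at 335 and 387 plain CPM, and Birc5, at 346 and 364, were similar in both. Rrm2, a subunit of ribonucleotide reductase, had 735 UMIs over 129 S-high and 3 UMIs over 98 S-low members, and Ccne1, the G1 to S cyclin E1, had 101 and 0.

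A fit within libraries over both groups tested genes outside both lists, and 13.2% of 8630 genes were higher and 9.13% lower in S-high than in S-low members (edgeR, adjusted p under 0.05). This comparison was added after the 2 modes were seen, and the cells between them count as S-high. The groups were split on S phase genes, so other cell cycle genes, among them histone, spindle and G1 genes, are given as a description. Their counts and p-values describe the split and are not evidence from a test. Of 13 replication-dependent histone genes, which supply the copied DNA, 11 were higher in S-high members. CPM of S-high and S-low members, here and below, are plain CPM, divided by total UMIs without TMM. Hist1h1b had 240, 262 and 222 CPM in S-high and 23.4, 31.3 and 33.3 CPM in S-low members, a log2 difference of 3.08 (SE 0.21, edgeR adjusted p = 8.1e-12). Hist1h2bc, a histone H2B gene outside that list, ran the other way, with 7.53, 21.3 and 6.30 CPM in S-high and 52.7, 450 and 374 CPM in S-low members. It had a log2 difference of -4.39 (SE 0.25, edgeR adjusted p = 1.8e-13).

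Of 20 spindle and cytokinesis genes, 12 were lower in S-high members and 1, the tubulin Tuba1b, was higher. Cenpa, the histone H3 variant of centromeres, had 107, 158 and 115 CPM in S-high and 1131, 983 and 939 CPM in S-low members (log2 difference -2.91, SE 0.14, n = 3 libraries, edgeR adjusted p = 2.6e-15). Every S-low value lay above every S-high value. Kif20a, a kinesin of cytokinesis, had 33.9, 23.4 and 27.3 CPM against 164, 109 and 96.2 CPM. Ptms, which encodes parathymosin, was among the genes most increased in S-low members, with 955, 705 and 858 CPM against 110, 94.2 and 77.7 CPM.

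Of 16 genes of ribosome biogenesis and Myc targets, 14 were higher in S-high than in S-low members and none was lower (median log2 difference 1.23, against -0.01 over all genes tested). Srm, spermidine synthase, had 114, 118.3 and 180.5 CPM in S-high and 11.7, 10.4 and 11.1 CPM in S-low members, a log2 difference of 3.66 (SE 0.30, edgeR adjusted p = 4e-10). Myc itself had 130.5, 117.6 and 130.1 CPM against 23.4, 43.2 and 44.4 CPM. No library overlapped between groups for either gene.

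Against the reference cells this list moved in opposite directions in the 2 groups. In S-high members 11 of the 16 rose and none fell, where 17.3% of all genes were higher and 15.5% lower. In S-low members none rose and 11 fell, where 5.57% were higher and 6.62% lower. Nop56, a box C/D nucleolar protein, rose by 0.86 (SE 0.10) on the log2 scale in S-high members and fell by 0.49 (SE 0.17) in S-low members (edgeR adjusted p = 1.45e-07 and 0.0362). Srm rose by 0.96 and fell by 2.72. Both comparisons share the reference cells. Over all members together only 8 of the 16 rose and 1 fell.

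G1 regulators, among the cell cycle genes given as a description, also followed the split. E2f1, a transcription factor of S phase entry, had 45.2, 63.3 and 54.6 CPM in S-high and 0, 0 and 3.70 CPM in S-low members. Cdkn1b, the cyclin-dependent kinase inhibitor p27, ran the other way with 33.9, 32.3 and 42.0 CPM against 129, 136 and 181 CPM (log2 difference -1.97, SE 0.21, edgeR adjusted p = 4.5e-08). Txnip, an inhibitor of glucose uptake linked to HSC quiescence, had 252, 228 and 178 CPM against 685, 699 and 758 CPM. In all, 6 of 15 G1 cyclin and inhibitor genes were higher in S-high members and 1 was lower. Of 12 glycolysis genes, 7 were higher and none was lower, among them Ldha with 417, 317 and 363 CPM against 305, 152 and 166 CPM.

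**Figure D2:**
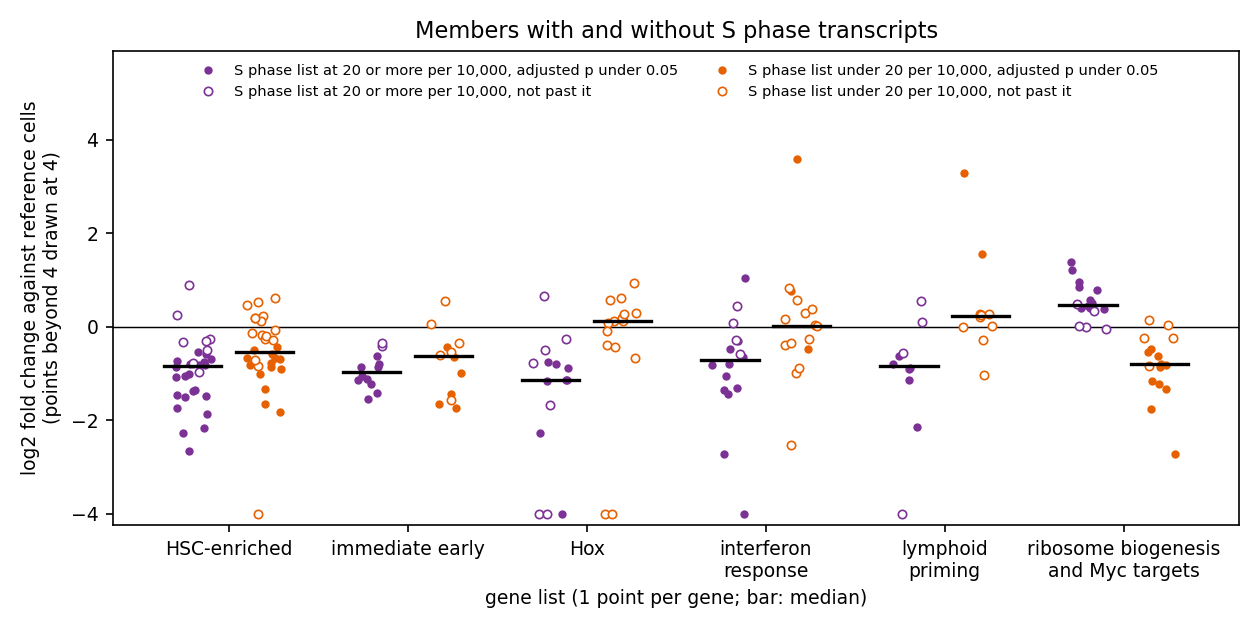
Each point is 1 gene of the list on the horizontal axis, and its height is the log2 fold change of S-high (purple) or S-low (orange) members against the same reference cells. Filled points passed an edgeR adjusted p of 0.05, bars mark list medians, and values beyond 4 are drawn at 4. The ribosome biogenesis medians are 0.46 in S-high and -0.81 in S-low members, while the HSC-enriched medians are -0.84 and -0.54.

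Genes of the stem cell state had lower relative levels in the cycling cells as a whole. Of 30 HSC-enriched genes, none rose and 20 fell against the reference cells, with a median log2 fold change of -0.72 against -0.07 over all genes. As a share of each cell's UMIs, the list held a median of 38.0, 45.4 and 46.7 per 10000 in cycling cells and 80.4, 64.2 and 71.9 in reference cells. Cycling cells held more UMIs in all, with medians of 20417, 17051.5 and 10184 against 9950, 9503 and 7328. These falls are therefore in relative level, and whether the number of molecules per cell fell was not tested. The list fell in both S-high members (22 of 30, median -0.84) and S-low members (14 of 30, median -0.54), and no gene of it rose in either.

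Mllt3, a chromatin reader that maintains HSCs, had 90.5, 53.6 and 28.9 CPM in cycling and 300.1, 101 and 98.6 CPM in reference cells (log2 fold change -1.39, SE 0.14, n = 3 libraries, edgeR adjusted p = 2.2e-08). Every library was lower in its cycling cells. Mllt3 fell in S-high (-1.38) and S-low members (-1.33). The difference between those groups was -0.04 (SE 0.25, edgeR adjusted p = 0.93).

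Socs2, a suppressor of cytokine signalling, had 13.2, 6.52 and 6.88 CPM in cycling and 67.3, 15.1 and 17.0 CPM in reference cells (log2 fold change -1.76, SE 0.24, edgeR adjusted p = 3.7e-06). Ly6a, which encodes the sort antigen Sca-1, had 85.4, 115 and 168 CPM against 284, 283 and 329 CPM (log2 fold change -1.32, SE 0.12, edgeR adjusted p = 5.7e-09). Its cycling and reference values did not overlap. Both fell in S-high and in S-low members.

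Procr, the endothelial protein C receptor and a sort antigen for HSCs, had 28.5, 46.1 and 41.3 CPM against 135, 103 and 115 CPM. It fell by 1.52 (SE 0.15, edgeR adjusted p = 1.7e-08) on the log2 scale. Procr was one of 9 of the 27 list genes fitted that were lower in S-high than in S-low members, with 15.1, 33.0 and 21.0 CPM against 93.7, 76.0 and 74.0 CPM. Hlf, a transcription factor of HSCs, had 263, 507 and 469 CPM in cycling and 523, 773 and 700 CPM in reference cells. It fell by 1.05 (SE 0.10) on the log2 scale in S-high members and was at -0.19 (SE 0.12, edgeR adjusted p = 0.324) in S-low members. The difference between both groups was -0.87 (SE 0.13, edgeR adjusted p = 6.1e-06).

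The other 10 genes of the list did not pass. Cd34, absent from most LT-HSCs of adult mice at the protein level, had 133, 302 and 270 CPM in cycling and 115, 405 and 384 CPM in reference cells (log2 fold change -0.27, SE 0.12, edgeR adjusted p = 0.085). Gata2, a transcription factor of early blood cells, had 105, 56.9 and 50.9 CPM against 136, 62.5 and 60.3 CPM. Kit, the stem cell factor receptor used in the sort and outside this list, fell by 0.45 (SE 0.10, edgeR adjusted p = 0.0013), from 253, 229 and 259 CPM to 200.3, 176 and 162 CPM.

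**Figure D3:**
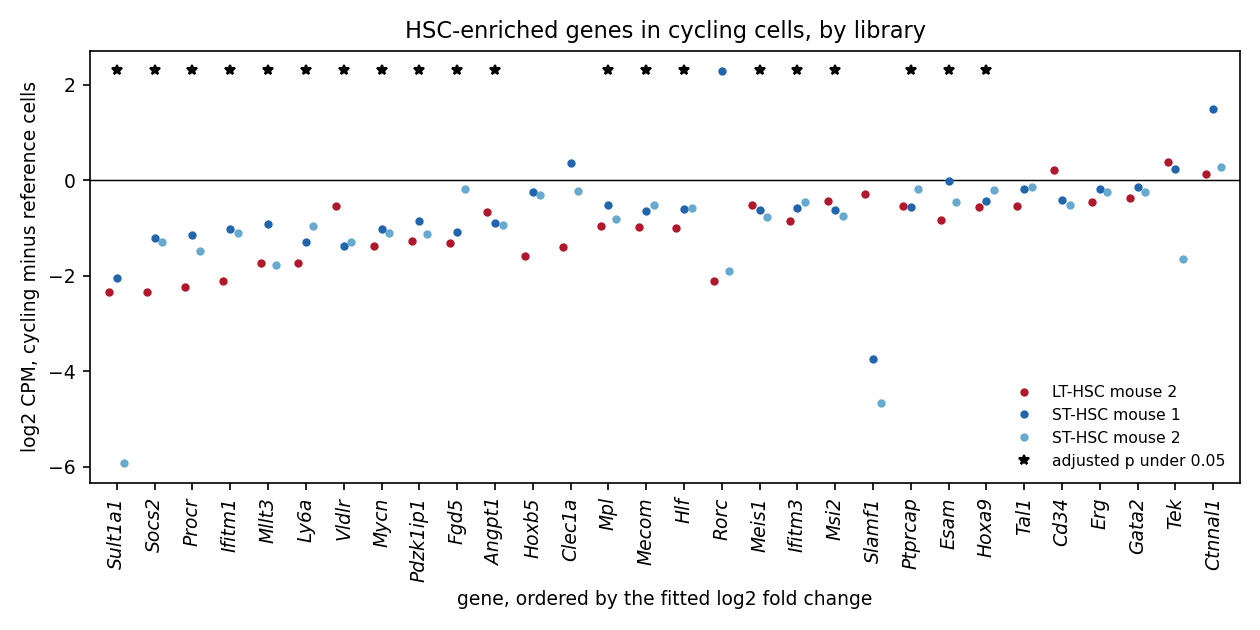
For each HSC-enriched gene on the horizontal axis, points give the difference in log2 CPM between cycling and reference cells in each of the 3 fitted libraries, and stars mark genes with an edgeR adjusted p under 0.05. All 20 starred genes lie below 0 in the fit, from Sult1a1 at -2.37 to Hoxa9 at -0.40.

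The reference cells are shallower than the cycling cells, so the fit was repeated with the reference cells at or above the 90th percentile of UMIs in their library (102, 216 and 153 cells, median UMIs 14810.5, 14306 and 11026). Then 17 of 29 HSC-enriched genes fell, with a median of -0.49, and none rose. Over all genes in that fit 844 of 10688 fell and 1254 rose, with a median of -0.03. Mllt3 stood at -0.72, Procr at -1.02 and Ly6a at -0.90, each with an edgeR adjusted p under 0.05. This alternative was chosen after the depths were seen.

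Of 15 quiescence genes, 7 fell, 1 rose and 7 did not pass (median -0.45). Klf4, a zinc finger factor, was the 1 that rose. Of 12 immediate early genes, 10 fell and none rose (median -0.98). Jund, an AP-1 subunit, had 140, 146 and 120 CPM in cycling and 336, 284 and 259 CPM in reference cells (log2 fold change -1.10, SE 0.10, edgeR adjusted p = 1.1e-08). Fos had 20.3, 37.3 and 33.0 CPM against 41.6, 86.5 and 57.2 CPM. Both fell in S-high and in S-low members. Time and temperature between marrow collection and capture are not in the labels, and their part in these levels was not tested.

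Meg3, a maternally expressed noncoding RNA, had 15.2, 3.26 and 0 CPM in cycling and 173.8, 22.1 and 21.4 CPM in reference cells (log2 fold change -3.40, SE 0.23, edgeR adjusted p = 4.8e-11). It was at -1.46 against the deepest reference cells. Of 7 imprinted genes 4 fell and none rose. Of 15 Hox genes, 5 fell and none rose. The Hox list separated S-high members, in which 8 of 15 fell, from S-low members, in which none passed. Hoxa9 had 69.0, 88.7 and 71.4 CPM in S-high and 117, 162 and 229 CPM in S-low members (log2 difference -1.02, SE 0.19, edgeR adjusted p = 0.00022).

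Of 16 interferon response genes, 8 fell and 2 rose. In S-high members 11 fell and 1, Ifit2, rose. In S-low members 1, Bst2, fell while Isg15 and Ifi27l2a rose. Compared directly, 10 of 13 genes fitted were lower in S-high than in S-low members and none was higher (median -1.36). Isg15, a ubiquitin-like protein, had 26.3, 27.5 and 18.9 CPM in S-high and 70.3, 50.7 and 152 CPM in S-low members. Ifi27l2a had 8.78, 10.3 and 63.0 CPM against 35.2, 264 and 296 CPM (log2 difference -3.22, SE 0.31, edgeR adjusted p = 7.8e-09).

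Among cell cycle entry genes outside the division lists, Ccnd2, cyclin D2, fell from 304, 210 and 184 CPM in reference cells to 102, 95.5 and 68.8 CPM in cycling cells. Its log2 fold change was -1.36 (SE 0.11, edgeR adjusted p = 8.3e-10), and it fell in S-high (-1.32) and S-low members (-1.45). Cdkn2c, the inhibitor p18, rose from 6.59, 8.98 and 8.76 CPM to 57.9, 34.5 and 44.0 CPM. Aldoa, a glycolytic aldolase, fell from 375, 270 and 444 CPM to 115, 122 and 200 CPM, while Tpi1, triosephosphate isomerase, rose by 0.72 on the log2 scale over all members and was at 0.96 in S-high and -0.12 in S-low members, where it did not pass. Among 18 cholesterol synthesis genes 1 rose and 2 fell.

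The 12 genes with the largest falls, counting genes that averaged at least 20 CPM, were Ngp, Wfdc17, Meg3, Tcp11l2, Ctsf, Ccl3, Socs2, Dlgap4, Kdm7a, Ccl4, Ifi44 and Myof. Tcp11l2 had 7.12, 15.8 and 19.3 CPM in cycling and 80.0, 72.5 and 73.0 CPM in reference cells (log2 fold change -2.39, SE 0.18, edgeR adjusted p = 3.6e-10). Ctsf, the protease cathepsin F, had 11.2, 7.46 and 12.4 CPM against 52.7, 33.6 and 37.5 CPM. The chemokine gene Ccl4 had 17.3, 30.8 and 46.8 CPM against 88.5, 98.0 and 117 CPM. Ngp, a neutrophil granule gene, had 0, 1.86 and 1.38 CPM against 1.82, 20.3 and 107 CPM. Reference cells with 2 or more UMIs of the neutrophil marker list numbered 8, 30 and 38, or 0.79%, 1.39% and 2.50%. Such cycling cells numbered 1, 4 and 6, or 2.08%, 3.33% and 10.2%, a larger share in each library. The part of these cells in the Ngp value was not tested.

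Lineage genes depended on a few cells. Of the 227 cycling cells fitted, 213 had 3 or more of Kit, Ly6a, Cd34, Mecom, Mllt3, Procr and Hlf detected and low levels of granule and erythroid genes. The 14 others held 11.8% of the UMIs. They were 4 granule-rich cells and 4 erythroid-rich cells, all in ST-HSC libraries, 4 cells rich in the lysozyme gene Lyz2 and 2 others. The granule-rich cells had 36488 to 60461 UMIs each, and all 8 granule-rich and erythroid-rich cells were S-high.

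Of the members' UMIs, these 14 cells held 99.9% for Elane, neutrophil elastase, 98.1% for Mpo, myeloperoxidase, and all for Car1, carbonic anhydrase 1. With all members, 14 of 15 erythroid genes and 10 of 17 myeloid genes rose. With stem-marker cells only, a choice made after the cells were seen, 1 of 10 erythroid genes rose and 2 fell, and 1 of 12 myeloid genes rose and 4 fell. Over all genes in that fit, 1751 of 12465 rose and 1711 fell. In that fit 19 of 30 HSC-enriched genes fell and none rose, though 6 genes of this list also chose its cells. Of 10 lymphoid genes, 2 rose and 4 fell in the fit of all members, with a median of -0.40. Dntt, the polymerase of antigen receptor joining (1.903), and Ighm, the mu heavy chain (1.00), rose, and Il12a, Ltb, Satb1 and Tcf4 fell. Dntt was at -0.56 in S-high members, where it did not pass.

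**Figure D4:**
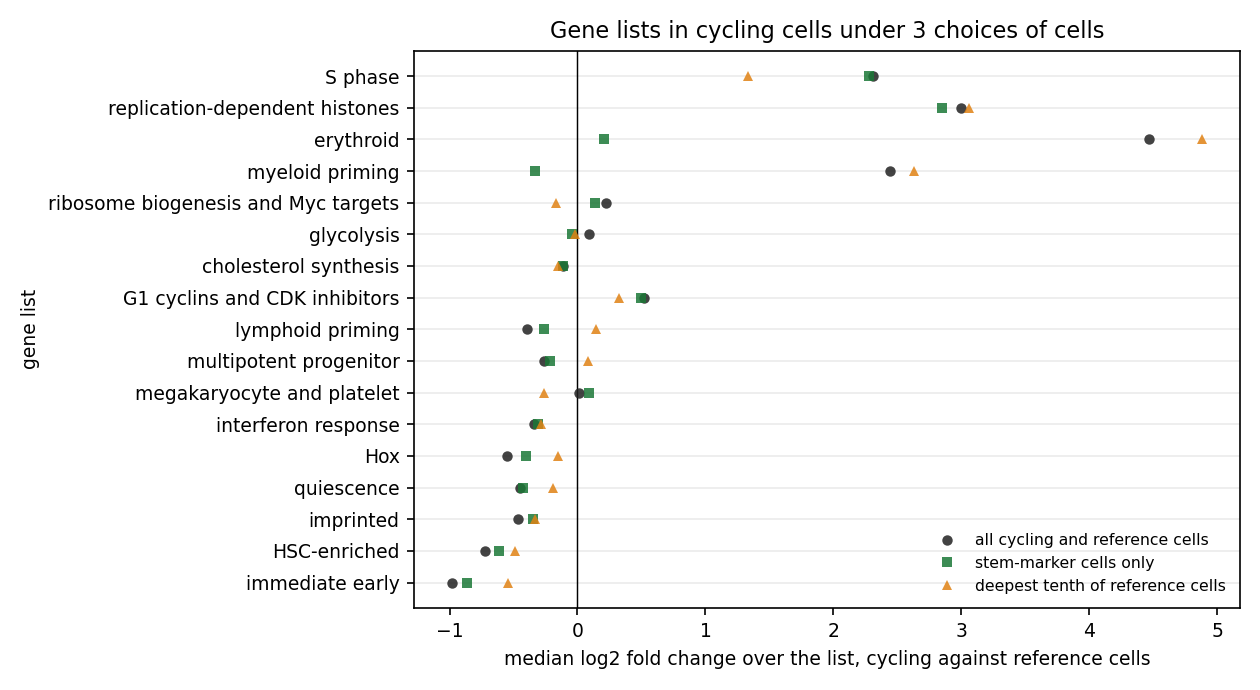
Each symbol is the median log2 fold change of a gene list (vertical axis) in cycling against reference cells, for all cells (circles), stem-marker cells only (squares) and the deepest reference cells (triangles). The erythroid median falls from 4.46 to 0.21 and the myeloid median from 2.44 to -0.33 when only stem-marker cells are kept, while the HSC-enriched median stays between -0.72 and -0.49.

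Lymphoid priming genes were higher in S-low members. Dntt had 0, 7.57 and 2.10 CPM in S-high and 5.86, 134 and 37.0 CPM in S-low members (log2 difference -4.06, SE 0.39, edgeR adjusted p = 7.7e-09). Ltb, the lymphotoxin beta gene, had 55.2, 130 and 107 CPM against 176, 423 and 518 CPM. Of 9 lymphoid priming genes fitted, 7 were lower in S-high than in S-low members and none was higher (median -1.13). The same count of 7 of 9 was found with stem-marker cells only.

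Between the sort gates, cycling LT-HSC and ST-HSC cells were compared in a fit over group means. The single LT-HSC library is there assumed to vary like the others. The spread in that fit comes from both ST-HSC libraries alone. Their cycling and reference sums share a mouse and a sort but enter as separate sums, which limits every p-value between gates below. Of 12667 genes, 0.0474% were higher and 0.166% lower in LT-HSC (edgeR, adjusted p under 0.05), 6 and 21 genes. Because mouse 2 gave 1 library of each gate, a fit with the mouse as a block was run too and gave 119 higher and 248 lower. That fit left 1 residual degree of freedom, and its LT-HSC arm is the single mouse 2 library, which limits every mouse-block result below. Reference sums held 10058812, 20995408 and 11413933 UMIs, against 967801, 2124962 and 746820 in cycling sums. Shares of genes passing in reference and in cycling cells are therefore not at like depth. Among reference cells 4.25% passed, 2.70% higher and 1.55% lower in LT-HSC.

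Apoe, apolipoprotein E, had 597, 95.1 and 89.4 CPM in cycling and 674, 130 and 106 CPM in reference cells. The LT-HSC to ST-HSC log2 difference was 2.69 (SE 0.20, edgeR adjusted p = 0.00062) in cycling and 2.52 (SE 0.18, edgeR adjusted p = 4.27e-05) in reference cells. In S-high members it had 607, 96.3 and 73.5 plain CPM and in S-low members 603, 95.3 and 111. The LT-HSC level was thus several times the ST-HSC level in S-high and in S-low members.

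Flt3, the receptor that marks multipotent progenitors, had 8.13, 105 and 121 CPM in cycling and 15.2, 139 and 160.4 CPM in reference cells. It was lower in LT-HSC by a log2 difference of -3.78 (SE 0.34, edgeR adjusted p = 0.0012) in cycling and -3.30 (SE 0.21, edgeR adjusted p = 1.7e-05) in reference cells. In S-high members it had 8.78, 76.4 and 69.3 CPM and in S-low members 5.86, 171 and 203 CPM, the last 5.86 from 1 UMI. The ST-HSC values were higher in S-low than in S-high members.

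Other MPP genes were on the same side. Plac8, a cysteine-rich protein of early progenitors, had 166, 554 and 877 CPM in cycling and 95.7, 413 and 388 CPM in reference cells (cycling log2 difference -2.10, SE 0.28, edgeR adjusted p = 0.016). Cd53, a tetraspanin, had 2 UMIs in cycling LT-HSC cells, and ST-HSC stood 28.8 times higher (exact counting interval 7.86 to 240). Of 16 MPP genes, 3 passed as lower in cycling LT-HSC cells and none as higher (median -1.85, against -0.01 over all genes). With stem-marker cells only 11 of 16 were lower, and with the mouse as a block 14.

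Cd34 had 133 CPM in cycling LT-HSC and 302 and 270 CPM in cycling ST-HSC cells, a log2 difference of -1.11 (SE 0.20, edgeR adjusted p = 0.07). It passed with stem-marker cells only (-1.26) and with the mouse as a block (-1.05). In reference cells the difference was -1.78 (SE 0.19, edgeR adjusted p = 0.000606).

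Slamf1, which encodes the gate antigen CD150, had 19 UMIs in cycling LT-HSC cells and 0 in 179 cycling ST-HSC cells, at least 18.8-fold higher against a floor of 3 UMIs over the ST-HSC group. It was found in 13 of the 48 LT-HSC cells. Cd48, whose protein was absent by the sort in both gates, had 11.2, 26.1 and 81.2 CPM in cycling and 1.32, 10.7 and 13.3 CPM in reference cells. It rose in cycling cells (log2 fold change 2.04, SE 0.26, edgeR adjusted p = 1.3e-06), but was at 0.42 with stem-marker cells only, where it did not pass.

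**Figure D5:**
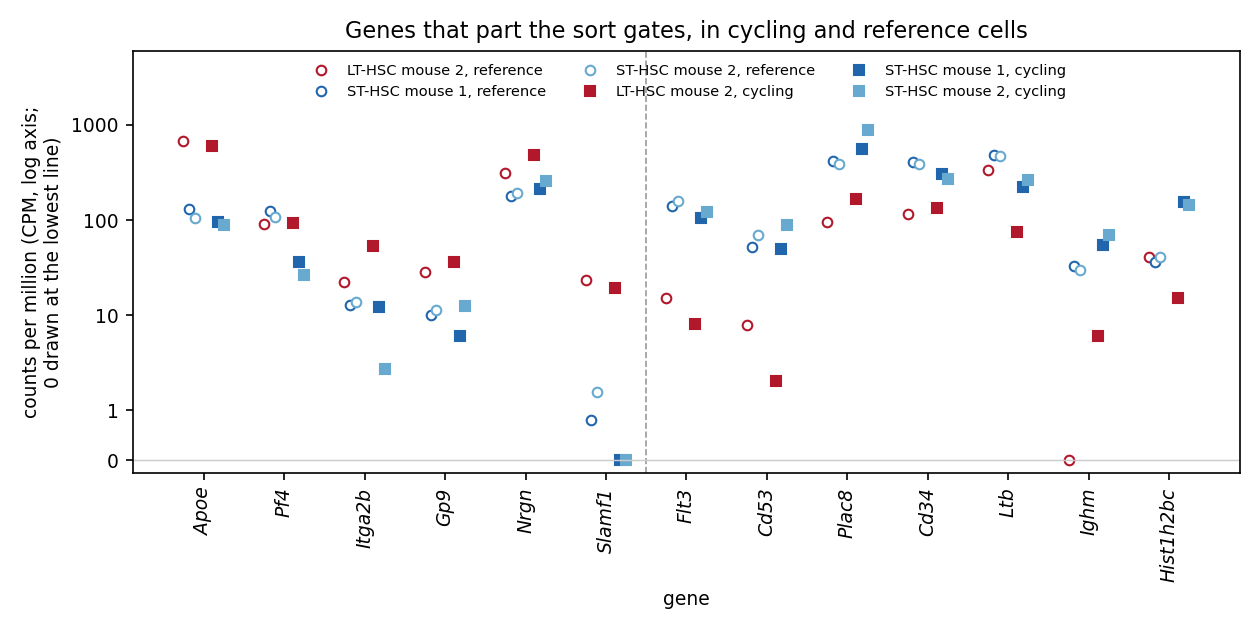
Points give the CPM (log axis, 0 drawn at the lowest line) of 13 genes in reference cells (open circles) and cycling cells (filled squares) of the 3 fitted libraries. Apoe and Slamf1 are higher in LT-HSC in both classes and Flt3, Cd53, Plac8 and Cd34 lower. Pf4, Ltb and Hist1h2bc part the gates among cycling cells, where the edgeR test of the difference passed, more than among reference cells.

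Of the platelet genes, Pf4, platelet factor 4, had 93.5, 36.4 and 26.1 CPM in cycling and 91.0, 124 and 107 CPM in reference cells. Its gate difference was 1.504 (SE 0.25, edgeR adjusted p = 0.045) in cycling and -0.35 (SE 0.18, edgeR adjusted p = 0.487) in reference cells. The difference between those was 1.88 (SE 0.22, edgeR adjusted p = 2.23e-05), in a fit with 1 residual degree of freedom in which 0.813% of 12667 genes passed, 0.189% higher and 0.624% lower. Without the library block it was 1.85 and did not pass (edgeR adjusted p = 0.306). Pf4 was thus near its reference level in cycling LT-HSC cells and lower than it in the cycling cells of both ST-HSC libraries. In S-high members it had 107, 45.4 and 16.8 plain CPM. In S-low members it had 41.0, 17.9 and 40.7 plain CPM, so LT-HSC and ST-HSC mouse 2 were level there.

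Itga2b, the integrin CD41, had 52.9, 12.1 and 2.75 CPM (log2 difference 2.48, SE 0.42, edgeR adjusted p = 0.052). Gp9, a subunit of the platelet von Willebrand receptor, had 36.6, 6.06 and 12.4 CPM (2.22, SE 0.41, edgeR adjusted p = 0.07). Neither passed over all members, and both passed with stem-marker cells only (2.36 each). Both also passed with the mouse as a block (Itga2b 2.50 and Gp9 2.04), where 1 residual degree of freedom was left. Of 17 megakaryocyte genes 1, Pf4, passed over all members, 4 with stem-marker cells only and 6 with the mouse as a block, all higher in LT-HSC.

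Ltb had 75.2, 220.5 and 263 CPM in cycling and 335, 482 and 476 CPM in reference cells. The gate difference was -1.67 (SE 0.22, edgeR adjusted p = 0.016) in cycling cells, and it differed from that of reference cells by -1.15 (SE 0.18, edgeR adjusted p = 0.000923). Without the library block this was -1.16 and did not pass (edgeR adjusted p = 0.883). Ighm had 6.10, 54.5 and 68.8 CPM, and all 6 LT-HSC UMIs came from 1 Lyz2-rich cell. Of 10 lymphoid genes 2 passed as lower and none as higher.

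Hist1h2bc was near equal between the gates in reference cells and not in cycling cells. It had 15.2, 155 and 143 CPM in cycling and 40.8, 36.4 and 40.8 CPM in reference cells. The gate difference was -3.30 (SE 0.28, edgeR adjusted p = 0.00086) in cycling and 0.08 (SE 0.16, edgeR adjusted p = 0.953) in reference cells. The gene is higher in S-low members, and the S-high share was 79.2% in LT-HSC against 53.3% and 45.8% in ST-HSC. Within S-low members the difference was -3.11 (SE 0.36, edgeR adjusted p = 0.000607) and within S-high members -1.24 (SE 0.67, edgeR adjusted p = 0.766). In the S-low LT-HSC cells it rests on 9 UMIs in 10 cells. The S-low members of the gates also differed in the score that chose the members. Its S-low medians were 64.9 in LT-HSC against 29.8 and 23.2 in ST-HSC. Whether the Hist1h2bc difference holds between S-low cells of like score was not tested.

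None of 20 spindle, 13 kinase and 36 S phase genes passed in either direction by edgeR, in a comparison where 1173 of all 12667 genes had an unadjusted p under 0.05, though all 36 S phase genes were positive in LT-HSC (median 0.40, against -0.01 over all genes). Within S-high members the S phase median was 0.10. Mpo had 0, 291 and 797 CPM, nearly all of it in the ST-HSC cells described above. With stem-marker cells only Mpo did not pass and Elane and Car1 were not fitted.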

How the data were processed

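Raw UMI counts per gene and cell barcode were deposited by the authors as filtered matrices. They were made with Cell Ranger 3.1.0 on mm10, per the submitters' processing notes, while the matrix header records software version 3.0.2. Nothing in the counts was normalized. The members, gene lists and thresholds were chosen with earlier results of these data known.

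Counts were summed per library and class for the 3 libraries with 10 or more cells in each class. The sums were tested with edgeR 4.0.16 (R 4.3.3): genes were filtered by filterByExpr, scaled by TMM and fitted by quasi-likelihood, with Benjamini-Hochberg adjustment over all genes outside the 12 that chose the members. TMM-scaled CPM were computed from the sums, and plain CPM divide by total UMIs. All CPM given separately for S-high and S-low members are plain CPM. Cycling against reference cells and S-high against S-low members used library as a block. LT-HSC against ST-HSC used group means without a block. The labels place LT-HSC and ST-HSC of mouse 2 in the same animal, so the fit with the mouse as a block was run as an alternative, and its values stand beside the counts it moves.

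Named genes were the 12, the gate genes, the 12 largest changes each way of one sign in all libraries that averaged at least 20 CPM, the 5 smallest p of the test between gate differences, and up to 4 genes per list that averaged at least 5 CPM. Genes named outside this rule, among them all those of the comparison of S-high with S-low members, were chosen after their values were seen. Nothing says that the ST-HSC libraries are more than 1 sort per mouse, so p-values measure the spread between these samples. On simulated counts for cycling against reference cells (12224 genes), a log2 change of 1 was recovered for 99% of 100 altered genes. For LT-HSC against ST-HSC (12233 genes), 35% of 100 were recovered at 1 and 96% of 100 at 2. Values of 1 further gene that this rule names are not reported here.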

Additional observations from a re-analysis of the deposited data

Results flagged for a closer look

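For 7 genes the LT-HSC to ST-HSC difference in cycling cells differed from that in reference cells, by edgeR's test of the difference itself with 1 residual degree of freedom. In this test 0.189% of 12667 genes were higher and 0.624% lower. The genes are Prtn3, the granule protease proteinase 3 (-2.07, edgeR adjusted p = 1.7e-07), Hist1h2bc (-3.40, 2.88e-07), the interferon-induced membrane protein gene Ifitm1 (-1.05, 3.59e-07) and the lymphocyte antigen gene Cd52 (2.28, 9.78e-06). The others are the tubulin-binding Stmn1 (0.61, 1.25e-05), Pf4 (1.88, 2.23e-05) and Ltb (-1.15, 0.000923). Prtn3 fell to -0.42 with stem-marker cells only, where it did not pass, and 65.2% of its UMIs in cycling cells lay in the 14 cells left out there. Cd52 was at 1.38 in that fit, with an edgeR adjusted p of 0.079, at 2.39 within S-high members, where it passed, and at -9.30 (SE 4.47) within S-low members, where it did not. Hist1h2bc was at -1.35 within S-high members, where it did not pass, and at -3.22 within S-low members, where it did. The S-low members of the gates differed in median score, as given above, and cells of like score were not compared. Without the library block, Hist1h2bc was the only one of the 7 that passed.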

How the results depend on the processing

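Counts of genes passing moved with the choice of cells and fit. Cycling against reference cells gave 2052 higher and 1876 lower. Higher calls numbered 903 after thinning, 1254 against the deepest reference cells and 696 in S-low members. Lower calls numbered 654 after thinning, 663 with DESeq2, 797 without the library block, 844 against the deepest reference cells and 827 in S-low members, and 1046 to 1244 when 1 library was left out. The cause was not tested. Leaving out libraries gave 1542 to 1872 higher. LT-HSC against ST-HSC cycling cells (6 higher, 21 lower) gave, higher, 12 and 10 at thresholds of 5 and 12 UMIs per 10000, 1 thinned, 10 with DESeq2, 84 with no filter, 58 with all libraries, 10 without granule-rich cells, 119 with the mouse as a replicate block, 18 with stem-marker cells, 2 in S-high and 11 in S-low members. Lower calls were 4 thinned, 152 with no filter, 95 with all libraries, 248 with the replicate block, 39 with stem-marker cells and 10 in both S-high and S-low members. Leaving out an ST-HSC library left no residual degrees of freedom there. Among reference cells stem-marker cells gave 524 higher. The test between gate differences gave 54 higher and 122 lower without granule-rich cells, 0 and 1 without the library block, 48 higher with stem-marker cells, and 15 and 46 in S-high members. The share of cycling cells in LT-HSC mouse 1 was 0 thinned, where its cycling cells were too shallow to be included. At thresholds of 5 and 12 the share was 5.73% and 3.23% in ST-HSC mouse 1. It was 4.45% and 2.64% in ST-HSC mouse 2. Signs turned in S-low members for E2f1 (-2.73), Txnip (0.25), Nrgn (-0.32), Hba-a1 (-0.040), Hoxa9 (0.19), Msmo1 (0.091), Tpi1 (-0.12), Nop56 (-0.49), Srm (-2.72) and Oasl2 (0.040), and in S-high members for Dntt (-0.56) and Cd9 (-0.27). They turned with stem-marker cells for Hba-a1 (-0.30), and against the deepest reference cells for Ndn (0.037) and Srm (-0.15). Between gates they turned for Ms4a3 (1.22 without granule-rich cells, 1.13 with stem-marker cells, 0.36 in S-low members), Cdc6 (-0.98) and Kit (-0.31) in S-low members, and for the difference of gates in Cd52 (-9.30, S-low members). Of 1414 values of named genes in cycling against reference cells, 1287 kept direction and side of the threshold. These limits add to the single LT-HSC library.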

Other observations

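Ribosomal protein genes, a group chosen after their values were seen, took a smaller share of the UMIs in cycling than in reference cells. The shares were 27.7% against 35.4% in LT-HSC mouse 2, 29.4% against 34.3% in ST-HSC mouse 1 and 28.4% against 33.5% in ST-HSC mouse 2. Against reference cells 56 of 79 such genes fell and 4 rose by edgeR, with a median of -0.26 against -0.07 over all genes. In edgeR's test of whether the gate difference differs between cycling and reference cells, 43 of 79 such genes were lower and none was higher, with a median of -0.21 against -0.03 over all genes. With stem-marker cells only 39 of 79 were lower. These differences between gates ran from -0.34 to -0.02 on the log2 scale. Without the library block 1 gene of all 12667, Hist1h2bc, passed that test.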
